A study of Mus musculus with 20 samples.

Results

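The response to loss of Spdef was compared between adult colon and adult small intestine, gene by gene, as the difference of 2 log2 ratios of knockout (KO) over wild type. The members are the 10 arrays of adult tissue out of the 20 arrays of the series: 6 of adult colon and 4 of adult small intestine. They were taken by their labels, and no measured value was used to choose them. Every array was hybridized with RNA of Spdef-/- mice in one dye and of wildtype mice in the other. Each channel held total RNA of dissected whole colon or whole small intestine, pooled from 2 to 3 littermates at postnatal day 30. Both dye orders of a pair of pools were averaged, which gave 3 pairs of pools for colon and 2 for small intestine. The other 10 arrays, of fetal tissue, entered only an alternative fit. The strain and the design of the targeted allele are not given in the sources used here. Nothing in the labels says whether pools of different number came from different litters, so p-values measure only the spread between these pools. In RNA of whole organs, fewer cells of a type and less RNA per cell cannot be told apart.

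Spdef is an ETS-family transcription factor of the secretory lineage of the gut. Goblet cells, which make mucus, populate both tissues and are especially abundant in colon. Paneth cells, which release alpha-defensins, lysozyme and other antimicrobial proteins at the crypt base, belong to the small intestine and are largely absent from normal mouse colon. Whether differences of the KO effect between the organs follow these cell types was not tested.

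The deposited signals gave 16230 genes whose probe was detected in 1 or both genotypes throughout the arrays of 1 or both adult tissues (flagged well above background by the scanner software). Between 39.7% and 68.5% of the 41174 probes passed that mark in a channel of an adult array. Defining markers in the wild type channel matched the tissue labels. Car1, a colonic carbonic anhydrase, had a log2 level of 16.16 in colon and 7.74 in small intestine, and Apoa1, an apolipoprotein of absorptive cells, 7.08 and 16.00. In the wild type channel 1507 genes (9.29%) differed between the tissues at an adjusted p under 0.05, 763 (4.7%) higher in colon and 744 (4.58%) lower. The KO channel held less Spdef RNA than the wild type channel in every pair, with log2 ratios of -3.30, -3.80 and -3.96 in colon and -1.68 and -2.86 in small intestine. Its difference between tissues was -1.42 ± 0.37 (SE, limma, adjusted p = 0.413), and its direction turned to 0.20 with the scanner's processed signals and to 0.19 in the deposited series table. Transcripts of the exocrine pancreas varied between pools of the same tissue: the median log2 ratio of 27 such genes was 0.85 and -2.69 in the small intestine pairs and -2.20, -0.01 and -2.82 in the colon pairs. The part of pancreatic RNA in the results was not tested.

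The difference between tissues passed the threshold (limma, Benjamini-Hochberg adjusted p under 0.05 over all genes tested) for 18 genes, 0.111% of those tested. The KO effect was higher in colon than in small intestine for 12 of them (0.0739%) and lower for 6 (0.037%). In colon alone the KO effect passed for 758 genes (4.67%), 270 higher (1.66%) and 488 lower (3.01%). With median centring in place of loess the colon calls split into 34 higher and 257 lower. In small intestine alone it passed for 28 genes (0.173%), 7 higher (0.0431%) and 21 lower (0.129%), and the split was 2 higher and 36 lower with median centring and 3 and 21 with the scanner's processed signals. With 3 pairs in one tissue and 2 in the other, these counts do not by themselves compare the tissues, and the classes below rest on the test of the difference. A gene was called colon-only if the difference and the colon effect passed and the small intestine effect did not, intestine-only in the reverse case, opposite if both effects passed with opposite signs, and shared if both effects passed with the same sign and the difference did not. There were 10 colon-only genes, 8 intestine-only genes, 13 shared genes and 0 opposite genes. At an unadjusted p under 0.05 in all 3 limma contrasts, 45 of the 16230 genes were opposite, 33 of them higher in colon. At that level 863 genes passed in both tissues, 818 of them with the same sign. Of the 18 genes, 9 had every colon pair on one side of 0 and every small intestine pair on the other. How many of all genes tested had such signs was not counted. Pools of the tissues did not overlap in 3626 of the 15457 genes that passed in no contrast. The 9 include Defa20, whose colon values were near background, and Lyz2, whose 2 probes disagree.

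**Figure D1:**
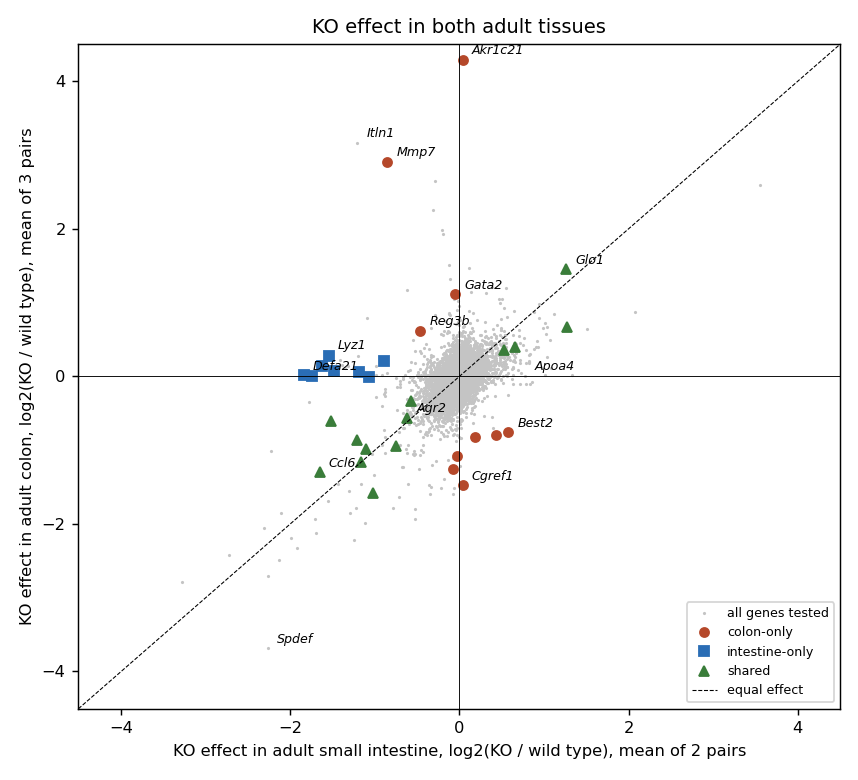
Each point is 1 gene, with the log2 ratio of KO over wild type in adult small intestine (mean of 2 pairs) on the x axis and in adult colon (mean of 3 pairs) on the y axis. Akr1c21 and Mmp7 lie far above 0 in colon and at 0.04 and -0.85 in small intestine, the 8 intestine-only genes lie left of 0 at colon values near 0, and the 13 shared genes lie at lower left or upper right, some of them away from the dashed line of equal effect, such as Ccl9 at -0.60 in colon and -1.52 in small intestine.

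The number of calls depended on the pools. Without small intestine pair 1, small intestine pair 2 or colon pair 1 the difference passed for 0 genes (1230, 896 and 811 genes at an unadjusted p under 0.05), without colon pair 2 for 8 and without colon pair 3 for 3. Each of the 18 genes kept its sign in all of these fits. Their colon pools all lay on one side of their small intestine pools, so leaving out 1 pair could not turn it. Colon pair 2 and small intestine pair 2 lay on one slide, labelled 8216, which is the only slide that held both adult tissues. Colon pair 1 and small intestine pair 1 lay on different slides of one scan run. The 18 genes were called from these same pools, with all colon pools on one side of all small intestine pools. Their sign within slide 8216 or scan run 1 was therefore fixed by the call. Their sizes were held close as well, since the call favours genes with little spread within a tissue. The pools of the slide or scan run also enter the value over all pools, so the ratios are no independent check. The ratio of the value within slide 8216 to the value over all pools ran from 0.823 to 1.17 (median 1.03), and that of scan run 1 from 0.829 to 1.09 (median 0.913). Over all genes tested, the differences within slide 8216 and within scan run 1 correlated at 0.0387 and had the same sign in 61.3%.

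**Figure D2:**
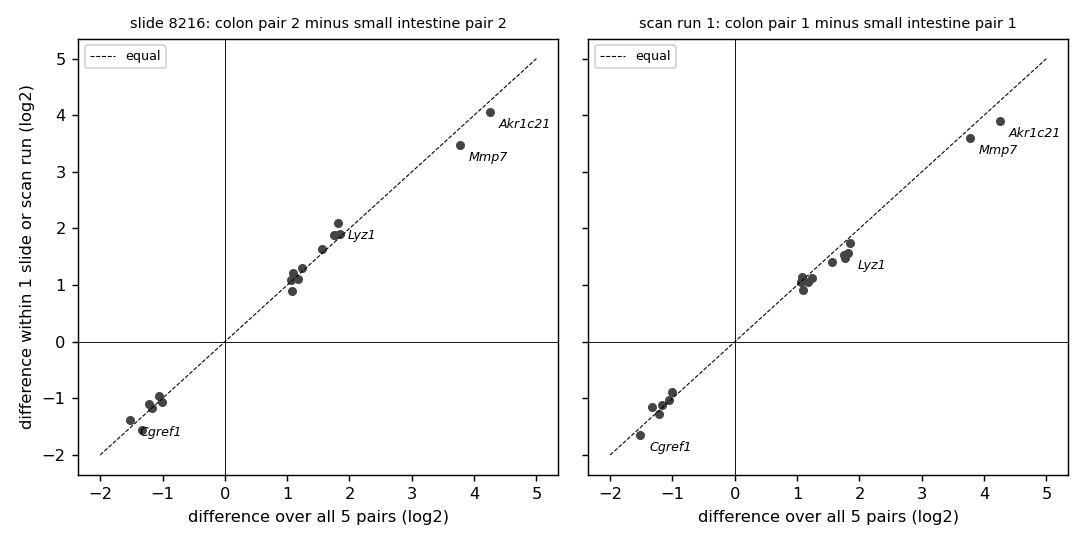
For the 18 genes past the threshold, the difference over all 5 pairs (x axis, log2) is plotted against the difference within slide 8216 (left) and within scan run 1 (right), 1 point per gene. The points lie near the dashed line of equal value, with Akr1c21 at 4.06 and 3.90 and Mmp7 at 3.47 and 3.60. The pools on the y axis are also part of the x axis.

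Akr1c21 and Mmp7 showed the largest differences among the 18. Akr1c21 encodes an aldo-keto reductase that acts on steroids. Its log2 ratios were 3.91, 4.14 and 4.83 in the colon pairs and 0.01 and 0.07 in the small intestine pairs. The colon values all stood far above those of small intestine. The colon mean of 4.29 ± 0.17 is a 19.6-fold rise (adjusted p = 0.0015), and the difference was 4.25 ± 0.26 (adjusted p = 0.0128). The wild type level was 7.47 in colon and 7.22 in small intestine on the log2 intensity scale. The level behind the colon fold was thus low too, although both channels were well above background on all 6 colon arrays. Over the alternatives the colon log2 ratio ran from 3.95 to 5.46. In small intestine the KO channel was well above background on 2 of 4 arrays and the wild type channel on 3 of 4, so that a small effect there could not be measured.

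Mmp7 encodes matrilysin, the metalloproteinase that cleaves alpha-defensin precursors in mouse Paneth cells. Its log2 ratios were 2.84, 2.53 and 3.37 in colon and -0.76 and -0.94 in small intestine. The groups did not overlap and lay on opposite sides of 0. The colon rise was 7.53-fold (2.91 ± 0.15, adjusted p = 0.00299), the small intestine mean was -0.85 ± 0.18 (adjusted p = 0.27), and the difference was 3.77 ± 0.24 (adjusted p = 0.0128). In wild type tissue Mmp7 was at 9.0 in colon and 13.45 in small intestine, and in KO tissue at 11.91 and 12.60. The wild type levels were far apart between the organs, whereas the KO levels were 0.68 log2 units apart. Itln1, an intelectin made by Paneth and goblet cells, had colon values of 2.58, 2.17 and 4.76 and small intestine values of -0.93 and -1.49, the same arrangement of signs with a wider spread (difference 4.38 ± 0.76, adjusted p = 0.28). Ang4, an angiogenin of Paneth cells, varied more within each tissue (colon 2.33, 0.37 and 4.07, small intestine 0.70 and -1.32) and its groups overlapped.

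The 250 bases before the annotated start of both genes are given because these genes carry the largest differences. They were read from RefSeq promoters of GRCm38.p6, on the gene's strand, at chr9:7691840-7692089 for Mmp7 (the upstream one of its 2 listed starts) and chr13:4573825-4574074 for Akr1c21. Capitals mark TATAAA, one of 2 motifs searched on both strands. Mmp7 holds it 26 and 123 bases before the start, Akr1c21 does not hold it.
Mmp7: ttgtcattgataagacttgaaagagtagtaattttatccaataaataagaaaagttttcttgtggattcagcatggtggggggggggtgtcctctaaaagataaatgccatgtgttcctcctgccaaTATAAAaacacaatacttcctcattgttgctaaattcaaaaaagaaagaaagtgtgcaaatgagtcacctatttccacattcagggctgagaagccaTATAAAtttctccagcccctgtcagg
Akr1c21: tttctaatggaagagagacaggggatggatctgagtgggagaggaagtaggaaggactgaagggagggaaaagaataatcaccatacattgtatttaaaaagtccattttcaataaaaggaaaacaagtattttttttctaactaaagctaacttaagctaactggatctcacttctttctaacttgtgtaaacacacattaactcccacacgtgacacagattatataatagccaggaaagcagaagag

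The other colon-only genes that were higher in colon were Gata2 and Reg3b. Gata2, a transcription factor of blood progenitors and mast cells, had log2 ratios of 1.03, 1.03 and 1.29 in colon and -0.03 and -0.07 in small intestine. The groups did not overlap, the difference was 1.17 ± 0.10 (adjusted p = 0.035), and its second kept probe gave 0.92. With the scanner's processed signals the Gata2 difference was 2.13. Of 6 mast cell genes tested, 3 rose in colon (1.66% of all genes tested). In small intestine 0 passed (0 also at an unadjusted p under 0.05 by limma). The 3 were Gata2 and the mast cell proteases Mcpt1 (0.86) and Mcpt4 (0.88). The Mcpt1 and Mcpt4 differences of 0.71 and 0.77 did not pass (limma, adjusted p = 0.413 and 0.296). The other members went otherwise. Cma1, a mast cell chymase, had -1.06, -0.50 and -1.79 in colon (adjusted p = 0.0511), Kit, the stem cell factor receptor, had -0.15, -0.29 and -0.23, and Hdc, the histidine decarboxylase that makes histamine, had -0.11, 0.09 and -0.13. The summed log2 level of the 6 genes was 11.5, 11.3 and 11.1 in KO colon and 11.4, 11.1 and 11.3 in wild type colon. Their part in the Gata2 value was not tested. Reg3b, a secreted C-type lectin that binds bacteria, had values of 0.66, 0.45 and 0.74 in colon against -0.49 and -0.44 in small intestine. The signs were opposite in every pool, and the difference was 1.08 ± 0.10 (adjusted p = 0.0451).

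The 6 colon-only genes that were lower in colon were Cgref1, Best2, Sval1, Col8a1, Amhr2 and Ceacam10. Best2 encodes bestrophin 2, an anion channel of colonic goblet cells. Its log2 ratios were -0.70, -0.85 and -0.72 in colon and 0.45 and 0.71 in small intestine. All colon pairs were below 0 and both small intestine pairs above, and the difference was -1.33 ± 0.10 (adjusted p = 0.0242), or -2.33 with the scanner's processed signals. The wild type level of Best2 was 13.44 in colon and 7.86 in small intestine. Sval1 had -0.84, -0.67 and -0.85 in colon, 0.43 and 0.43 in small intestine and wild type levels of 14.39 and 8.72. Ceacam10, of the carcinoembryonic antigen family, had -0.78, -0.81 and -0.88 in colon and 0.10 and 0.26 in small intestine, with wild type levels of 11.21 and 7.64. The signs were opposite in every pool for these 3 genes, and each had a wild type level at least 3 log2 units higher in colon.

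Cgref1, a secreted EF-hand protein, had the lowest difference of the 18, with log2 ratios of -1.39, -1.56 and -1.48 in colon and 0.25 and -0.17 in small intestine (difference -1.52 ± 0.14, adjusted p = 0.0367). Its wild type level was 14.84 in colon and 15.68 in small intestine. The small intestine values were measured on all 4 arrays in both channels and lay on either side of 0. Col8a1, a chain of type VIII collagen, fell by 1.21, 1.24 and 1.31 in the colon pairs, and its small intestine values were -0.09 and -0.07. A second probe of Col8a1 gave a difference of -1.18, beside -1.17 for the probe used. Amhr2, the receptor of anti-Mullerian hormone, had colon values of -1.04, -1.01 and -1.19 and small intestine values of -0.00033 and -0.05. In colon the Amhr2 probe was well above background on 1 of 6 arrays in KO and 6 of 6 in wild type. In small intestine it was so on 1 of 4 in KO and 3 of 4 in wild type. Its small intestine value was therefore read near the detection limit, and so was the KO level behind the size of its colon fall. The Amhr2 difference was -1.06, and -2.68 with the scanner's processed signals.

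**Figure D3:**
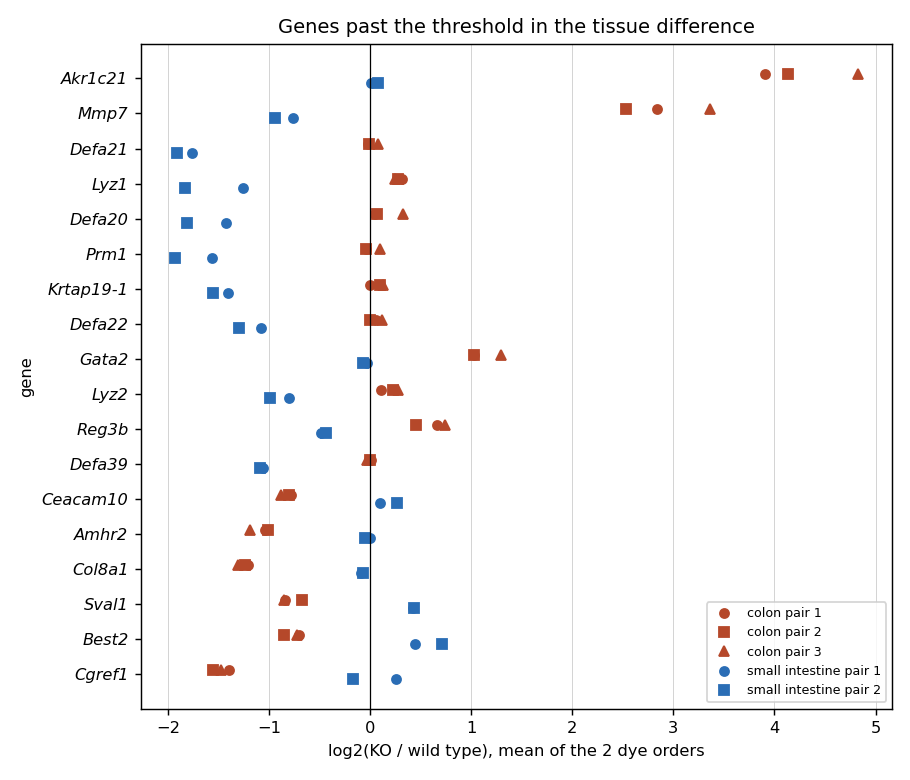
Log2 ratios of KO over wild type (x axis) for the 18 genes past the threshold in the tissue difference (y axis), with 1 point per pair of pools, in red for the 3 colon pairs and in blue for the 2 small intestine pairs. In each gene the red and blue points do not overlap, with Cgref1 and Akr1c21 close to 0 in small intestine and the Defa genes close to 0 in colon.

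The 8 intestine-only genes all fell in KO small intestine, and 4 of them encode alpha-defensins and 2 encode lysozymes. Lyz1, the Paneth cell lysozyme, had log2 ratios of -1.26 and -1.83 in small intestine and 0.31, 0.27 and 0.25 in colon. Small intestine was lower in both pairs, and colon was slightly above 0 in all 3 without passing the threshold (0.28 ± 0.11, adjusted p = 0.175). The difference was 1.82 ± 0.17 (adjusted p = 0.0369). Wild type levels of Lyz1 were 12.04 in colon and 16.59 in small intestine. Lyz2, the lysozyme known from macrophages, had -0.80 and -0.99 in small intestine and 0.11, 0.22 and 0.27 in colon (difference 1.10 ± 0.09, adjusted p = 0.0297). Its second probe, at other positions of the gene, gave -0.09 and -0.01 in small intestine and a difference of 0.27, so the 2 Lyz2 probes disagree. Lyz1 and Lyz2 are close copies, and probes of one may bind RNA of the other. A list of 23 Paneth genes other than defensins was also tested. In small intestine 1 of them fell (0.129% of all genes tested), with list medians of -0.07 in pair 1 and -0.42 in pair 2. In colon 3 rose (1.66% of all genes). The difference was positive for 16 and negative for 7, and 2 passed, with a positive difference (0.0739% of all genes).

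Defa21 had the smallest adjusted p of all genes tested (0.00886). Its log2 ratios were -1.76 and -1.91 in small intestine, a 3.58-fold fall, against -0.02, -0.01 and 0.08 in colon. The small intestine wild type level was 17.84, whereas in colon neither genotype was well above background on any array. Defa22 and Defa39 likewise fell in small intestine (by 1.08 and 1.30 for Defa22 and by 1.06 and 1.09 for Defa39), with neither genotype well above background in colon. For these 3 genes the colon ratio has no measured level behind it, and intestine-only means that no colon effect could be measured. Defa20 fell by 1.43 and 1.81 in small intestine, with colon values of 0.05, 0.07 and 0.32 that were above background on 4 of 6 arrays in KO and 3 of 6 in wild type. Of 10 alpha-defensins tested, 6 fell in small intestine (0.129% of all genes tested) and 4 passed in the difference (0.111% of all genes). In colon 0 passed (0 also at an unadjusted p under 0.05 by limma). The median difference was 1.46, and over all genes tested it was 9.9e-05. Only 1 of the 10 remained among genes above background in both tissues. The others entered the test through small intestine, where they are high, so the positive sign of their difference follows from a fall there and a colon ratio near background.

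The promoters of Defa20 and Defa21 are shown because defensins fell together and are near-identical copies. They stand at chr8:21509008-21509257 and chr8:21025295-21025544 (RefSeq, GRCm38.p6, plus strand, 250 bases before the start). Both hold TATAAA (capitals) 31 bases before the start. They share 245 of 250 bases without gaps, and the Defa21 and Defa22 promoters are identical over 250 of 250 bases. Array probes of such genes may bind each other's RNA, so the 10 defensins are not independent readings.
Defa20: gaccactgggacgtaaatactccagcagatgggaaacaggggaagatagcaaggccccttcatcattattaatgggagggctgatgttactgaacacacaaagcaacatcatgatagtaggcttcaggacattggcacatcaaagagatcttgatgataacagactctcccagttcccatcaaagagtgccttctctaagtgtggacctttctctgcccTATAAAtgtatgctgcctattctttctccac
Defa21: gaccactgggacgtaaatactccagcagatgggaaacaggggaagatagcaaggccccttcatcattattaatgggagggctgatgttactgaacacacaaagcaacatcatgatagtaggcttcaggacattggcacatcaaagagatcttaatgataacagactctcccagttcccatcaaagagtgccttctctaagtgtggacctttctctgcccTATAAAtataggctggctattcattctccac
Of the 7 intestine-only genes with a promoter in the table, 3 held TATAAA, all 3 of them defensins, compared with 2 of 9 colon-only genes and 13% of all 27025 genes of the table. CCGGAT, a site with the GGAT core that Spdef prefers, was in 0 of 9 colon-only, 0 of 7 intestine-only and 0 of 7 shared promoters and in 4.9% of all genes, which says only that these letters are not in these windows.

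The remaining intestine-only genes were Prm1 and Krtap19-1. Prm1 is known as a sperm protamine and Krtap19-1 as a keratin-associated protein of hair. Prm1 had log2 ratios of -1.57 and -1.93 in small intestine and -0.04, -0.04 and 0.10 in colon, with wild type levels of 15.45 in small intestine and 7.70 in colon. Krtap19-1 had -1.41 and -1.55 in small intestine, -0.0026, 0.09 and 0.13 in colon and wild type levels of 13.92 and 9.32. The other probes of both genes did not show this. For Prm1, 2 further probes that did not pass the detection filter gave small intestine means of 0.03 and -0.003, and for Krtap19-1 the second probe was not well above background on any adult array. What RNA the 2 bright probes read was not tested.

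The 13 shared genes comprised 9 that fell and 4 that rose in both tissues. In 10 of the 13 the pools of the tissues did not overlap. The same held for 3626 of the 15457 genes that passed in no contrast. It also held for 589 of the 735 that passed in colon but neither in small intestine nor in the difference. Shared means only that both effects passed with the same sign, not that they are equal in size. Agr2 is the disulfide isomerase required for mucin folding. Its log2 ratios were -0.55, -0.50 and -0.64 in colon and -0.59 and -0.64 in small intestine. The pools of both tissues overlapped, and the difference was 0.05 with a 95% interval from -0.13 to 0.24. Its wild type level was 17.18 in colon and 15.53 in small intestine. Galnt12, which starts mucin-type O-glycan chains, fell by 0.84, 0.94 and 0.82 in colon and by 1.08 and 1.35 in small intestine (difference 0.35, 95% interval 0.10 to 0.60). Rap1gap, an activator of GTP hydrolysis by Rap1, had -1.51, -1.64 and -1.62 in colon and -0.82 and -1.21 in small intestine (difference -0.57, interval -0.89 to -0.25). The pools of Galnt12 and Rap1gap did not overlap, although the adjusted p of the difference was 0.477 and 0.375, so an equal effect is not shown for either.

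The chemokines Ccl6 and Ccl9 and the potassium channel Kcnk6 fell in both organs as well. Ccl6 had -1.08, -1.50 and -1.33 in colon and -1.54 and -1.76 in small intestine, with the interval of the difference from -0.001 to 0.70. Ccl9 had -0.67, -0.63 and -0.51 in colon and -1.40 and -1.64 in small intestine, a stronger fall in small intestine in every pool that missed the threshold in the difference (0.91 ± 0.10, adjusted p = 0.0837). Kcnk6 had -0.93, -1.05 and -0.96 in colon and -0.98 and -1.23 in small intestine and overlapped between tissues. Tpsg1, a membrane-anchored tryptase, was at -1.12, -1.35 and -1.02 in colon and -0.98 and -1.35 in small intestine, with a difference of 0.005 and an interval from -0.36 to 0.37. Vps39, a subunit of the lysosomal tethering complex, and Snhg3, a host of small nucleolar RNA, also fell in both tissues.

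Glo1, the glyoxalase that detoxifies methylglyoxal, rose in both tissues, by 1.51, 1.47 and 1.38 in colon and 1.20 and 1.33 in small intestine (difference 0.19, interval -0.01 to 0.39). The Glo1 probe lies on chromosome 17, 30320018 to 30320077 (mm8), 2.88 Mb from that of Spdef. Among the 13 shared genes 2, Glo1 and Tpsg1, lay within 10 Mb of Spdef, compared with 405 of 16131 genes with a position, and 0 of the 18 genes past the threshold in the difference did. The part of the chromosomal position was not tested. Ighg, an immunoglobulin gamma constant region, rose by 0.58, 0.59 and 0.84 in colon and by 1.45 and 1.09 in small intestine.

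**Figure D4:**
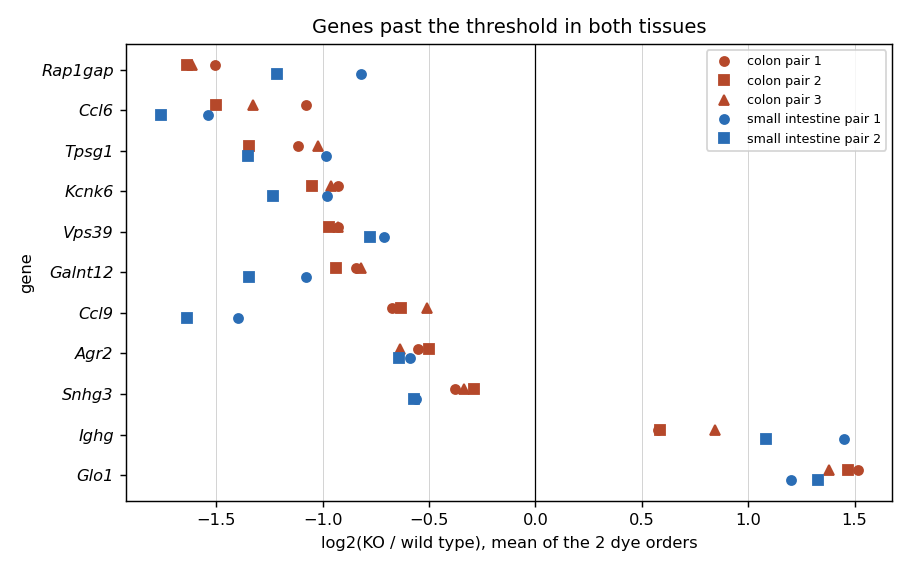
Log2 ratios of KO over wild type (x axis) for 11 of the 13 shared genes, without the 2 that have only predicted names (y axis), 1 point per pair of pools, red for colon and blue for small intestine. The points of Agr2, Tpsg1 and Kcnk6 overlap between tissues, and those of Ccl9 do not.

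No gene of the goblet list passed limma's test of the difference between the tissues. Best2, the goblet cell channel that passed it, is not in this list. Of the list, 13 of 39 had an unadjusted p under 0.05, 10 of them negative and 3 positive (8.32% of all genes tested had such a p). Of 39 goblet genes tested, 20 fell and 2 rose in colon (3.01% and 1.66% of all genes tested). In small intestine 7 fell (0.129% of all genes), and 0 passed in the difference. The median log2 ratio was -0.32 in both tissues. The small intestine median was -0.163 in pair 1 and -0.424 in pair 2, so this match rests on both pairs, and without small intestine pair 2 the median difference was -0.191. The median difference over all pairs was -0.06, with 13 of 39 positive, and it turned to 0.01 with the scanner's processed signals. The main mucin Muc2 had -0.81, -1.10 and -1.05 in colon and -0.33 and -0.94 in small intestine (difference -0.35 ± 0.19, adjusted p = 0.704). Nupr1, a stress-induced nuclear protein, had -2.09, -2.09 and -2.46 in colon and -1.04 and -1.46 in small intestine, with no overlap (adjusted p of the difference 0.296). Tpd52l1 had -1.32, -1.54 and -1.57 in colon and -0.17 and -0.54 in small intestine (adjusted p = 0.102). Both had larger falls in every colon pool, without passing the test of the difference.

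Tff3, the goblet trefoil peptide, was 1 of the 2 goblet genes that rose in colon, by 0.36, 0.74 and 0.57 (adjusted p = 0.0264), and was at -0.16 and -0.21 in small intestine. The pools lay on opposite sides of 0, and the difference of 0.75 ± 0.12 did not pass (adjusted p = 0.249). Like Glo1, Tff3 lies on chromosome 17, with its probe 3.41 Mb from that of Spdef. The part of this position in the Tff3 values was not tested. The second gene that rose in colon was Capn9, a calpain of the gut, at 0.40, 0.51 and 0.33 in colon and 0.10 and 0.35 in small intestine. Guca2b, the uroguanylin precursor, was higher in the colon pools (0.89, 1.08 and 1.09) than in the small intestine pools (-0.22 and 0.20), and its difference of 1.03 ± 0.14 did not pass (adjusted p = 0.16).

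Genes of the cell cycle lay higher in the colon pairs than in the small intestine pairs without any passing the test of the difference. All 30 proliferation genes tested had a positive difference, with a median of 0.40, where 8123 of 16230 genes overall were positive, and without small intestine pair 1 it was 29 of the 30. Of the 30, 10 rose in colon (1.66% of all genes tested), 0 passed in small intestine and 0 passed in the difference by limma's test. At an unadjusted p under 0.05, 29 were higher in colon, 3 were lower in small intestine and 22 had a positive difference, where 11% of all genes tested were higher in colon, 6.3% lower in small intestine and 4.28% positive in the difference. Kif23, a kinesin of cytokinesis, had 0.46, 0.51 and 0.35 in colon and -0.01 and -0.05 in small intestine (difference adjusted p = 0.266). Mki67, the classical proliferation marker, had 0.25, 0.29 and 0.16 in colon and -0.24 and -0.15 in small intestine (adjusted p = 0.296). Aurkb, a mitotic kinase, had 0.29, 0.39 and 0.42 in colon and -0.01 and -0.07 in small intestine. The median over the list was 0.271, 0.336 and 0.295 in the colon pairs and -0.03 and -0.01 in the small intestine pairs, and it was 0.44 for the difference within slide 8216 and 0.35 within scan run 1. The median difference was 0.32 to 0.42 with any 1 pair left out. The count of 10 in colon was 1 with the scanner's processed signals or median centring and 0 in the deposited series table.

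Genes of the gut wall lay on the other side. All 21 fibroblast and collagen genes had a negative difference (median -0.16), as had 18 of 19 smooth muscle genes (median -0.205) and 16 of 17 neuron and glia genes (median -0.135), with 0 genes of any of these lists past the threshold in the difference and 4 of each list at an unadjusted p under 0.05, all 4 negative (4.04% of all genes tested were negative at that level). Over the alternatives that tested the same genes, up to 3 of the 21, 4 of the 19 and 7 of the 17 were positive. In colon 3, 3 and 6 genes of these lists fell (3.01% of all genes), and 9, 12 and 12 were lower at an unadjusted p under 0.05 (14.5% of all genes). In small intestine 0 passed in any of the lists, and 2 of each were lower at an unadjusted p under 0.05 (6.3% of all genes), and 1 collagen gene was higher (4.36% of all genes). All 16 T and NK cell genes had a positive difference of small size (median 0.13). Over the alternatives that tested all 16, between 11 and 16 were positive, with 11 and a median of 0.069 without colon pair 3. The part of the wall tissue in each pool in the falls seen in colon was not tested.

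**Figure D5:**
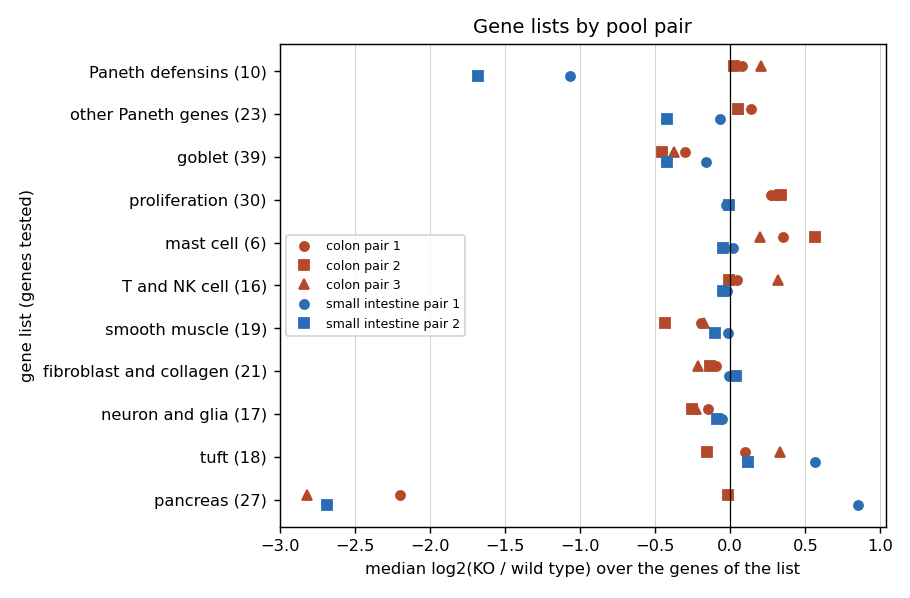
Median log2 ratio of KO over wild type (x axis) over the genes of 11 lists (y axis, genes tested in brackets), with 1 point per pair of pools, red for colon and blue for small intestine. Proliferation genes have colon medians of 0.27 to 0.34 and small intestine medians near 0, defensins are low only in the blue points, and the pancreas list spreads from -2.82 to 0.85 within and between tissues.

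The genes called in colon were also read in small intestine, where few passed the threshold on their own. Of the 488 genes that fell in colon, 439 (90%) also had a negative value in small intestine, with medians of -0.37 and -0.14. Of the 270 genes that rose in colon, 189 (70%) had a positive value in small intestine, with medians of 0.36 and 0.08. Over all genes tested, the 2 effects had the same sign for 66.4%. Among the largest changes, 25 of the 26 genes that fell more than 2-fold in colon had a negative value in small intestine, compared with 5 positive of the 12 that rose more than 2-fold. The difference between these shares was not tested. Whether pools of the same number in colon and small intestine came from the same mice is not given in the labels.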

How the data were processed

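RNA pools of KO and wild type tissue were compared on two-colour Agilent arrays, with 500 ng of RNA amplified per channel, per the labels. Per the submitters' processing notes, spots were extracted with Agilent Feature Extraction 9.5.3. The deposited scanner files give mean, background and processed signals of each channel as linear intensity and, per the file headers, a log10 ratio of red over green. The deposited series table holds log2 ratios, found by regression on the scanner ratios to be KO over wild type, and was used only as an alternative. Probe positions refer to mm8. Names in the files were replaced with those of the RefSeq gene table of GRCm38.p6, matched by accession (23475 probes), symbol (6686) or unique older symbol (2874), while 8139 probes kept the name in the file.

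limma 3.58.1 under R 4.3.3 subtracted background from the mean signals (normexp with an offset of 50), followed by within-array loess in which control spots had weight 0, and spots marked as outliers were dropped. Replicate spots were averaged per probe, every ratio was turned to KO over wild type, and dye swaps were averaged, which gave 5 replicates. Where a gene had several detected probes, the one with the highest mean intensity was used. All 5 replicates entered 1 fit with a term per tissue (3 residual degrees of freedom, empirical Bayes prior), two-sided, with Benjamini-Hochberg adjustment over 16230 genes and a threshold of 0.05. Values after ± are limma standard errors, with n = 3 pairs for colon and 2 for small intestine. Levels are log2 intensities of one channel after loess and Aquantile scaling, and were compared between tissues within a gene only. The number of arrays limits the precision. The steps were tested on simulated data with known changes.

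The comparison, the gene lists and the panel of genes named in any case were chosen with earlier results of these data known. Besides the panel, up to 10 genes each way past the threshold in the difference with no overlap of pools, up to 8 genes of each class and up to 3 members of each list with the smallest adjusted p were named; predicted and clone names were counted only. Capn9, Snhg3, Ighg, Cma1, Kit, Hdc and Car1 were named outside this rule, after their values were seen or as tissue markers. Lists are described by counts and medians, with no test. Alternatives covered signals, normalization, detection filter, probes, blocks, prior, the fetal arrays and each left-out pair. Promoters were matched by symbol for 23 of 31 genes. Replicate numbers were not used for pairing. Deviations from the tissue mean across genes correlated at -0.07 and -0.05 between same-numbered pools. The 2 small intestine pools deviate equally from their mean with opposite signs. Both values therefore rest on 1 small intestine contrast and cannot decide whether the pools are paired. For the adult arrays the replicate number also marks the scan run.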

Additional observations from a re-analysis of the deposited data

Results flagged for a closer look

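The 18 genes past the threshold in the tissue difference were flagged because the effect under the same contrast differed between the 2 adult tissues by a test of the difference itself (limma, adjusted p from 0.00886 to 0.0451). Values are the KO effect in colon (3 pairs) minus that in small intestine (2 pairs) on the log2 scale, and in every gene all colon pools lay on one side of all small intestine pools. The 12 positive differences were 4.25 for Akr1c21, 3.77 for Mmp7, 1.85 for Defa21, 1.82 for Lyz1, 1.77 for Defa20, 1.75 for Prm1, 1.55 for Krtap19-1, 1.25 for Defa22, 1.17 for Gata2, 1.10 for Lyz2, 1.08 for Reg3b and 1.07 for Defa39. The 6 negative differences were -1.52 for Cgref1, -1.33 for Best2, -1.22 for Sval1, -1.17 for Col8a1, -1.06 for Amhr2 and -1 for Ceacam10. In Defa21, Defa22 and Defa39 neither genotype was above background in colon. The value moved by over 1.5 times with the scanner's processed signals for Amhr2 (-2.68), Best2 (-2.33), Ceacam10 (-1.53) and Gata2 (2.13), with the deposited series table for Amhr2 (-2.48), Best2 (-2.35) and Gata2 (1.92), and with the mean of both probes for Lyz2 (0.68).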

How the results depend on the processing

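The main counts were 18 genes in the difference, 758 in colon, 28 in small intestine, 10 colon-only, 8 intestine-only, 9 with opposite signs in every pool, 13 shared and 1507 in the wild type comparison. With processed signals there were 12 in the difference (8 of the 18 among them) and 232 in colon. There were 2 intestine-only genes, 6 with opposite signs and 2944 in wild type. With median centring there were 19 in the difference (13 of the 18 among them), 291 in colon, and in small intestine 38. The series table gave 6 in the difference, 163 in colon, 2 colon-only, 4 intestine-only and 2 with opposite signs. Of the 18 genes, 4 passed in the difference there: Col8a1, Defa21, Defa39 and Krtap19-1. Akr1c21 and Mmp7 did not pass with the series table. The strict filter gave 4 intestine-only genes, and so did the filter on both tissues, which was added after the data were seen. The replicate block, which is also the block of the scan run, gave 7 in the difference (3 of the 18 among them), 23 in colon, 25 in small intestine, 4 colon-only, 1 intestine-only, 2 with opposite signs and 4 shared. With all 4 groups in 1 fit there were 29 in the difference (13 of the 18), 1649 in colon, 69 in small intestine, 12 colon-only, 17 intestine-only, 14 with opposite signs and 34 shared. With every array as an observation there were 111 (all 18), 2224, 173, 71, 28, 19 and 83 in the same order. With the trended and robust prior every one of these counts was 0 (1271 genes at an unadjusted p under 0.05 in the difference). Leaving out 1 pair gave 0 to 8 in the difference, 0 to 221 in colon, 0 to 30 in small intestine, 0 to 5 colon-only, 0 to 3 intestine-only, 0 to 3 with opposite signs and 0 to 13 shared. The causes of these changes were not tested. In each of these settings every tested gene of the 18 kept the sign of its difference, and no other result named in the text turned its sign while past the threshold. For the fits without 1 pair the sign of the 18 was fixed by the call. The block on slide could not be fitted, since 5 replicates on 4 slides leave its correlation without an estimate. Signals near background limit Akr1c21 in small intestine, Amhr2 in small intestine and in KO colon, and the defensins in colon.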

Other observations

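Other gene groups read over the same pools were those of tuft cells, enteroendocrine cells and interferon response. The 18 tuft cell genes tested had median log2 ratios of 0.565 and 0.118 in the small intestine pairs and 0.10, -0.16 and 0.33 in the colon pairs, with 0 genes past the threshold in either tissue or in the difference. Enteroendocrine genes had a negative difference for 25 of 32 (median -0.16), where 8123 of 16230 genes overall were positive. Of the 32, 2 fell in colon (3.01% of all genes tested) and 0 passed in the difference. At an unadjusted p under 0.05 by limma, 7 had a negative difference (4.04% of all genes). At that level 7 were higher in small intestine (4.36%), and in colon 5 were lower (14.5%) and 3 higher (11%). The 28 interferon response genes had a median of -0.78 in colon pair 2 and of -0.19 and 0.10 in the other two colon pairs, with 0 past the threshold. Apoa4, an apolipoprotein of enterocytes, rose in small intestine by 0.84 and 0.72 (adjusted p = 0.0216), and in colon its KO channel was not well above background on any array, so that its difference of -0.77 (adjusted p = 0.0658) has no measured colon level behind it.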
